A study of Mus musculus with 12 samples.

Results

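The genes described here were 8 lysosomal proteases and 2 of their inhibitors, namely the cathepsin genes Ctsb, Ctsc, Ctsd, Ctsk, Ctsl, Ctss and Ctsz, the legumain gene Lgmn, and the cystatin genes Cst3 and Cstb. They were taken by symbol from a table of 55335 mouse genes, and all 10 were among the 12622 genes that reached 1 FPKM (read fragments corrected for gene length and library size) in at least 3 of the 12 libraries and were tested. RNA was sequenced from bone marrow-derived macrophages (BMDMs), macrophages grown from mouse bone marrow, in 4 groups of 3 libraries: wild-type control, wild-type with LPS and ATP, Nlrp3-/- control, and Nlrp3-/- with LPS and ATP. By the labels, LPS was given for 4 hours and ATP for 30 min, whereas the study's methods give 12 hours and 2 hours. The methods give C57BL/6 mice aged 8 weeks, a purchased Nlrp3-/- line, and culture in macrophage colony-stimulating factor for 7 days. Every cell of the knockout mice lacks the gene, so macrophages differentiated without it. The labels do not say whether libraries of a group came from separate cultures or mice, so p-values measure the spread between these libraries, which may be technical.

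Cathepsins are proteases of the endosome and lysosome. They are made as inactive precursors, carried to the lysosome largely by mannose 6-phosphate receptors, and matured there by acid and by other proteases, legumain among them. In macrophages they digest engulfed proteins, trim the invariant chain from MHC class II molecules, and can be secreted. Cystatins bind the active site of the cysteine cathepsins and block it. LPS is a bacterial lipid sensed by Toll-like receptors, and extracellular ATP opens the channel P2X7R, which triggers the NLRP3 inflammasome. Damage to lysosomes and release of cathepsin B is another known trigger of that inflammasome, which is a reason to look at these genes in cells with and without Nlrp3.

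Nlrp3 was between 9.24 and 10.1 FPKM in wild-type control, between 32.1 and 33.6 FPKM in wild-type with LPS and ATP, and listed at 0 in all 6 Nlrp3-/- libraries. Xist was at least 32.8 FPKM in each Nlrp3-/- library and at most 0.0416 FPKM in each wild-type library, and the Y-linked Ddx3y was listed at 0 in the Nlrp3-/- libraries, so that sex and genotype cannot be told apart. Nnt, which differs between C57BL/6 substrains, was lower in Nlrp3-/- (0.670 to 1.47 FPKM) than in wild-type libraries (4.09 to 10.3 FPKM). Libraries of a group correlated at 0.990 to 0.993 (Pearson's r on the log2 scale), and FPKM summed to between 283278 and 299393 per library. Reads per library are unknown, and the steps between low values put relative depth between 1.00 and 1.22. Differences were tested by limma on log2(FPKM + 1) in 1 fit of the 4 group means, and a gene passed at a Benjamini-Hochberg adjusted p under 0.05. A gene that also changed by 1 or more on the log2 scale was counted as differentially expressed (DEG). Fold changes from this fit are on the log2(FPKM + 1) scale.

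The lysosomal proteases were among the most abundant transcripts of the cells. FPKM is scaled by gene length, so that levels can be set side by side between genes. In wild-type control, Ctsd had the highest mean level of the 10 genes, 6182 ± 123 FPKM (SD, n = 3), followed by Ctss at 3067 ± 100.9 FPKM and Ctsb at 2720 ± 51.5 FPKM. Among all genes of the table, Ctsd ranked between the 4th and the 9th place in the 12 libraries, Ctss between 8 and 12, and Ctsb between 9 and 19. Below them in wild-type control came Ctsz, Lgmn, Cst3, Cstb, Ctsl and Ctsc, and Ctsk was the lowest at 45.9 ± 2.48 FPKM. No neighbours in this order overlapped in wild-type control. The order of the first 4 (Ctsd, Ctss, Ctsb, Ctsz) was the same in all 4 group means. Lgmn came next in both control groups and, with LPS and ATP, overlapped Cst3 in wild-type and Ctsc in Nlrp3-/-. Cst3 and Cstb overlapped in Nlrp3-/- control. Ctsc passed above Ctsl in both stimulated groups.

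**Figure D1:**
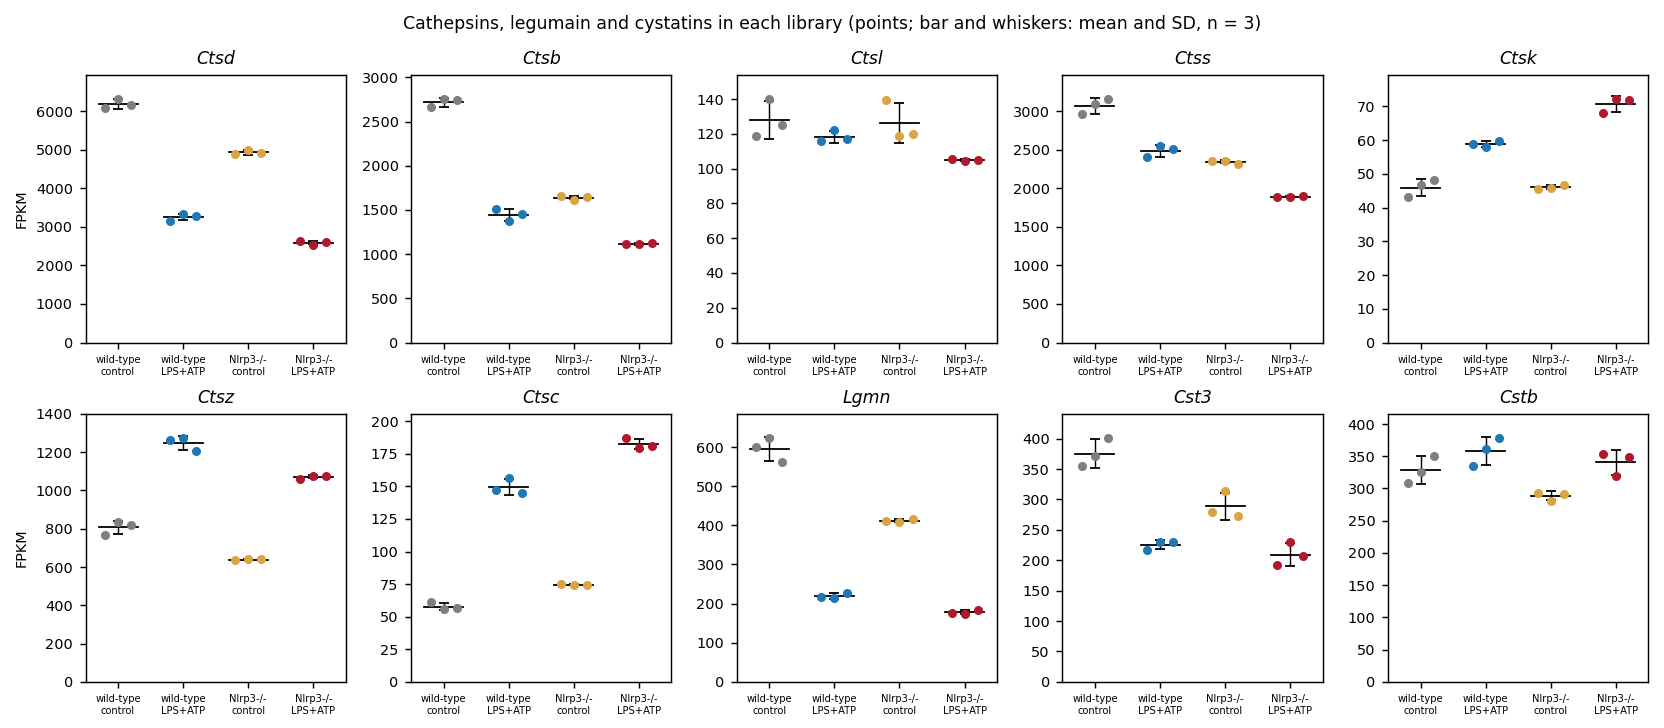
FPKM (y axis, from 0) of each of the 10 genes in every library, by group (x axis); the line and whiskers are the mean and SD of 3 libraries. Ctsd, Ctsb, Lgmn and Cst3 were lower with LPS and ATP in both genotypes, and Ctsc, Ctsz and Ctsk were higher.

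Together the 10 genes made up 4.81% ± 0.106 (SD, n = 3) of all FPKM in wild-type control and 3.32% ± 0.0308 in wild-type with LPS and ATP. The share was 3.64% ± 0.0151 in Nlrp3-/- control and 2.73% ± 0.0179 in Nlrp3-/- with LPS and ATP. The 4 groups did not overlap in this share. Ctsb, Ctsd and Ctss held 83.7% of the summed FPKM of the 10 genes in wild-type control, 82.6% in Nlrp3-/- control, and 75.1% and 72.2% in the stimulated wild-type and Nlrp3-/- groups. In bulk RNA, fewer cells of a type and less RNA per cell cannot be told apart.

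With LPS and ATP, wild-type BMDMs had less RNA of Ctsd, Ctsb, Ctss, Lgmn and Cst3 and more of Ctsc, Ctsz and Ctsk. In this comparison, 3 of the 10 genes were higher and 5 lower, against 23.3% of all tested genes higher and 53.1% lower, and 2 (Ctsc and Lgmn) were DEGs, against 19.4% of tested genes. The median log2 fold change of the 10 genes was -0.21, and that of all tested genes was -0.25. In Nlrp3-/- BMDMs, 4 genes were higher and 6 lower, against 20.6% and 53.8% of tested genes, and the same 2 genes were DEGs, against 14.8%. The medians were -0.28 for the 10 genes and -0.24 for all tested genes. The shares of lower genes and of DEGs were near the background in both genotypes. Median-ratio scaling between libraries shifted the all-gene median by 0.25 for wild-type and by 0.23 for Nlrp3-/- and evened the split, to 35.4% higher and 35.7% lower in wild-type and to 32.6% and 33.0% in Nlrp3-/-. Of the 10 genes, 5 were then higher and 4 lower in wild-type, and 4 and 3 in Nlrp3-/-, each log2 fold change being raised by 0.32 to 0.33 in wild-type and by 0.29 in Nlrp3-/-. The 2 groups did not overlap in 8 of 10 genes in wild-type (all but Ctsl and Cstb) and in 10 of 10 in Nlrp3-/-, against 78.1% and 77.4% of tested genes.

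Ctsd encodes the aspartic protease cathepsin D, which cystatins do not block. Its level was 6071, 6314 and 6161 FPKM in wild-type control and 3162, 3322 and 3289 FPKM with LPS and ATP. In Nlrp3-/- BMDMs it was 4876, 4990 and 4925 FPKM in control and 2621, 2540 and 2609 FPKM with LPS and ATP. Every stimulated library was below every control library of its genotype and of the other. The log2 fold change was -0.92 ± 0.03 (SE, adjusted p = 3.1e-11) in wild-type and -0.93 ± 0.03 (adjusted p = 3.9e-11) in Nlrp3-/-, which on the FPKM scale was a level 1.90-fold lower in each genotype.

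Ctsb encodes cathepsin B, a cysteine protease that cuts inside proteins and also removes dipeptides from their ends. It was at 2661, 2757 and 2743 FPKM in wild-type control and at 1507, 1374 and 1458 FPKM with LPS and ATP. The Nlrp3-/- libraries had 1654, 1617 and 1643 FPKM in control and 1111, 1116 and 1131 FPKM with LPS and ATP. Wild-type control stood above all other libraries, and Nlrp3-/- control stood above both stimulated groups. Ctsb fell by 46.8% in wild-type (log2 fold change -0.91 ± 0.03, adjusted p = 2.3e-10) and fell by 31.7% in Nlrp3-/- (log2 fold change -0.55 ± 0.03, adjusted p = 2.8e-08).

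Lgmn encodes legumain, an asparaginyl endopeptidase that matures several cathepsins, and had the largest fall of the 10 genes in both genotypes. It was at 601, 623 and 562 FPKM in wild-type control and at 216, 214 and 228 FPKM with LPS and ATP. The Nlrp3-/- libraries had 410.1, 408 and 417 FPKM in control and 176, 173 and 184 FPKM with LPS and ATP. No stimulated library reached a control library. The level was 2.71-fold lower with LPS and ATP in wild-type (log2 fold change -1.44 ± 0.04, adjusted p = 3.3e-11) and 2.32-fold lower in Nlrp3-/- (log2 fold change -1.21 ± 0.04, adjusted p = 2.0e-10).

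Ctsc encodes cathepsin C, the dipeptidyl peptidase that activates the serine proteases of granulocytes and cytotoxic cells, and had the largest rise. It was at 61.0, 55.6 and 56.4 FPKM in wild-type control and at 147, 156 and 145 FPKM with LPS and ATP. Without Nlrp3 it was at 74.9, 74.4 and 74.2 FPKM in control and at 187, 179 and 181 FPKM with LPS and ATP. The 4 groups did not overlap, with Nlrp3-/- above wild-type in each state. Ctsc rose 2.59-fold in wild-type (log2 fold change 1.36 ± 0.04, adjusted p = 5.4e-11) and 2.45-fold in Nlrp3-/- (log2 fold change 1.28 ± 0.04, adjusted p = 1.2e-10).

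Ctsz encodes cathepsin Z, a carboxypeptidase also named cathepsin X, and was the only gene among the 4 most abundant that was higher with LPS and ATP. It was at 768, 834 and 821 FPKM in wild-type control and at 1264, 1273 and 1209 FPKM with LPS and ATP. Levels in Nlrp3-/- were 636, 640.4 and 641 FPKM in control and 1062, 1074 and 1077 FPKM with LPS and ATP. All stimulated libraries stood above all control libraries. The rise was 1.55-fold in wild-type (log2 fold change 0.63 ± 0.03, adjusted p = 6.4e-09) and 1.68-fold in Nlrp3-/- (log2 fold change 0.74 ± 0.03, adjusted p = 2.0e-09).

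Ctsk encodes cathepsin K, the collagen-degrading enzyme known from osteoclasts. Its level was 43.2, 46.5 and 48.0 FPKM in wild-type control and 58.9, 57.9 and 59.8 FPKM with LPS and ATP. In the Nlrp3-/- groups it was 45.6, 45.9 and 46.8 FPKM in control and 68.1, 72.2 and 72.0 FPKM with LPS and ATP. The controls of both genotypes overlapped, and the stimulated groups stood apart from them and from each other. The rise was 1.28-fold in wild-type (log2 fold change 0.35 ± 0.04, adjusted p = 8.8e-06) and 1.53-fold in Nlrp3-/- (log2 fold change 0.61 ± 0.04, adjusted p = 1.0e-07). Ctsk and Ctss are neighbours on chromosome 3, with 17423 bases between them in GRCm38. Ctss moved the other way in the FPKM as deposited but did not pass under median-ratio scaling.

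Ctss encodes cathepsin S, which trims the invariant chain and stays active at neutral pH. It was at 2958, 3087 and 3157 FPKM in wild-type control and at 2398, 2553 and 2502 FPKM with LPS and ATP. The Nlrp3-/- libraries had 2350, 2352 and 2319 FPKM in control and 1887, 1884 and 1896 FPKM with LPS and ATP. Each stimulated group lay below the control of its genotype. Ctss fell by 19.0% in wild-type (log2 fold change -0.30 ± 0.03, adjusted p = 1.8e-06) and fell by 19.3% in Nlrp3-/- (log2 fold change -0.31 ± 0.03, adjusted p = 1.9e-06), close to the median of all genes, and under median-ratio scaling it was no longer seen (0.03 and -0.02, adjusted p = 0.463 and 0.664).

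Ctsl encodes cathepsin L, an endopeptidase of the lysosome, and its change with LPS and ATP depended on the scaling. It was at 119, 140.1 and 125 FPKM in wild-type control and at 116, 122 and 117 FPKM with LPS and ATP, and these groups overlapped. Levels in Nlrp3-/- were 139.5, 119 and 120.1 FPKM in control and 105, 104 and 105 FPKM with LPS and ATP, without overlap. The log2 fold change was -0.11 ± 0.07 (adjusted p = 0.156) in wild-type and -0.26 ± 0.07 (adjusted p = 0.00445) in Nlrp3-/-, and both turned above 0 under median-ratio scaling, where the wild-type value passed as higher (0.22, adjusted p = 0.0119) and the Nlrp3-/- value did not (0.03, adjusted p = 0.713). The difference between these responses was -0.15 ± 0.09 (adjusted p = 0.280).

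The 2 cystatins did not move together. Cst3 encodes cystatin C, a secreted inhibitor, and was at 355, 371 and 401 FPKM in wild-type control and at 217, 229 and 231 FPKM with LPS and ATP. The Nlrp3-/- libraries had 279, 314 and 272 FPKM in control and 192, 230.1 and 206 FPKM with LPS and ATP. Control stood above stimulated libraries in each genotype, and the 2 stimulated groups overlapped. Cst3 fell by 40.0% in wild-type (log2 fold change -0.73 ± 0.07, adjusted p = 2.8e-06) and fell by 27.4% in Nlrp3-/- (log2 fold change -0.46 ± 0.07, adjusted p = 0.000143), and the Nlrp3-/- value did not pass under median-ratio scaling (adjusted p = 0.0654).

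Cstb encodes cystatin B, which stays inside the cell, mainly in the cytosol and nucleus. It was at 308, 326 and 351 FPKM in wild-type control and at 335, 361 and 378 FPKM with LPS and ATP, with overlap. In the Nlrp3-/- groups it was at 294, 280.4 and 291 FPKM in control and at 353, 319 and 349 FPKM with LPS and ATP, without overlap. The log2 fold change was 0.13 ± 0.06 (adjusted p = 0.0705) in wild-type and 0.24 ± 0.06 (adjusted p = 0.00331) in Nlrp3-/-. The wild-type value passed without wild-type control replicate 3 (adjusted p = 0.0201), without wild-type LPS and ATP replicate 1 (adjusted p = 0.0236), under TPM (0.17, adjusted p = 0.0161) and under median-ratio scaling (0.45, adjusted p = 2.3e-05). The ratio of Cst3 to Cstb was 1.14 ± 0.01 in wild-type control, 1.00 ± 0.10 in Nlrp3-/- control, 0.631 ± 0.019 in wild-type with LPS and ATP and 0.618 ± 0.092 in Nlrp3-/- with LPS and ATP.

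**Figure D2:**
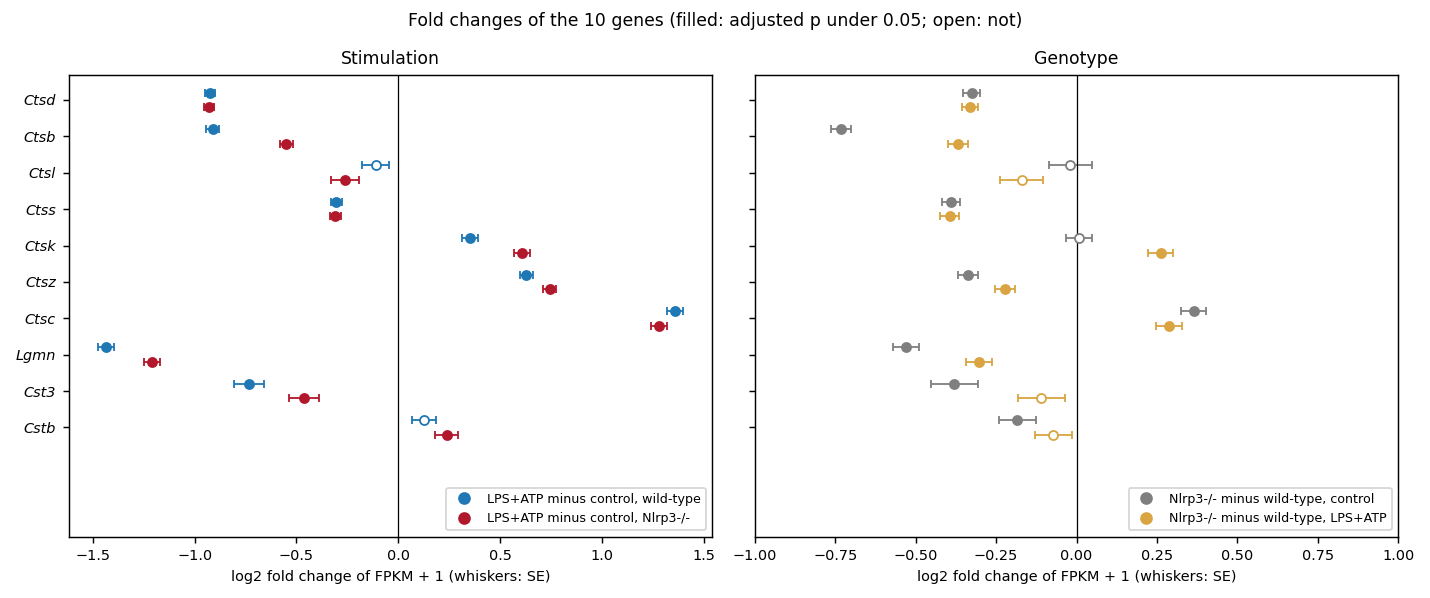
Log2 fold change of FPKM + 1 (x axis) of the 10 genes (y axis), with whiskers for the SE, for stimulation (left) and genotype (right); filled points had an adjusted p under 0.05 and open points did not. Ctsc and Lgmn lie farthest from 0 on the left, and Ctsb in control lies farthest on the right.

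The ratio of protease to cystatin RNA was lower with LPS and ATP. Summed FPKM of the 8 proteases over that of the 2 cystatins was 19.4 ± 1.03 in wild-type control and 15.4 ± 0.641 in wild-type with LPS and ATP. It was 17.7 ± 0.421 in Nlrp3-/- control and 13.1 ± 0.121 in Nlrp3-/- with LPS and ATP. With all 8 proteases, each stimulated group lay below its control without overlap. Without Ctsd, which is no target of cystatins, the ratio was 10.6 ± 0.499 in wild-type control and 9.83 ± 0.481 in wild-type with LPS and ATP, and these groups overlapped. It was 9.15 ± 0.265 in Nlrp3-/- control and 8.39 ± 0.0362 in Nlrp3-/- with LPS and ATP, without overlap. The summed cystatins were 704, 584, 577 and 550.0 FPKM in wild-type control, wild-type stimulated, Nlrp3-/- control and Nlrp3-/- stimulated. The sum of the proteases thus varied more between groups than that of the cystatins. Cst3 and Cstb had changes of opposite sign with LPS and ATP, so this does not hold for each gene. Cst3 alone had means of 376, 226, 289 and 209 FPKM in the same order of groups. A ratio of RNA is not a ratio of protein or activity.

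**Figure D3:**
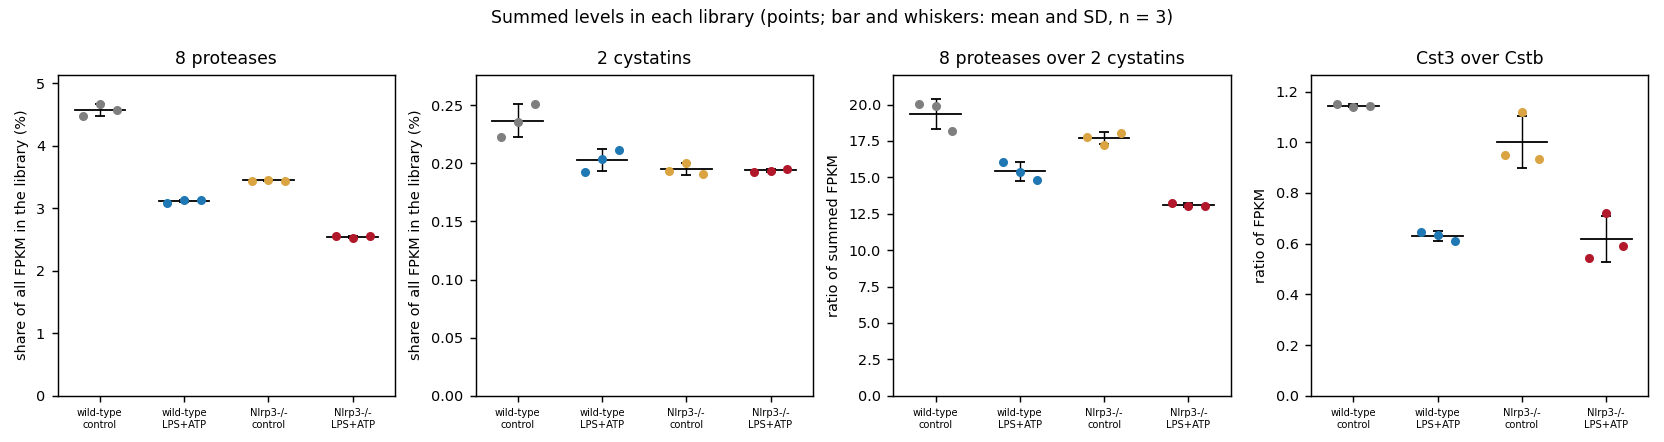
Share of all FPKM held by the 8 proteases and by the 2 cystatins (percent), the ratio of both sums, and the ratio of Cst3 to Cstb (y axes, from 0) in each library by group; lines and whiskers are the mean and SD of 3 libraries. The protease share and both ratios were lower in each stimulated group than in its control.

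The response to LPS and ATP differed between genotypes in 3 of the 10 genes, all with a higher (less negative or more positive) change in Nlrp3-/-, whereas 14.7% of tested genes had a higher and 13.0% a lower change. None of the 10 differed by 1 or more on the log2 scale, as 2.15% of tested genes did. The difference was 0.36 ± 0.04 for Ctsb (SE, adjusted p = 0.000131), 0.25 ± 0.06 for Ctsk (adjusted p = 0.00675) and 0.23 ± 0.06 for Lgmn (adjusted p = 0.0113). For Ctsb and Lgmn, the fall was smaller in Nlrp3-/-, from a lower control level. For Ctsk the rise was larger, from a like control level in the FPKM as deposited but a lower one under median-ratio scaling. For Cst3 the difference was 0.27 ± 0.10 (adjusted p = 0.0752) and for Ctsz 0.12 ± 0.04 (adjusted p = 0.0786). Cst3 passed without Nlrp3-/- control replicate 2 (adjusted p = 0.0330) or Nlrp3-/- LPS and ATP replicate 1 (adjusted p = 0.0346). Ctsz passed without wild-type control replicate 1 (adjusted p = 0.00569) and under TPM (0.13, adjusted p = 0.0468). Ctsd and Ctss had differences of -0.00 with SEs of 0.04, the nearest to 0 of the 10.

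**Figure D4:**
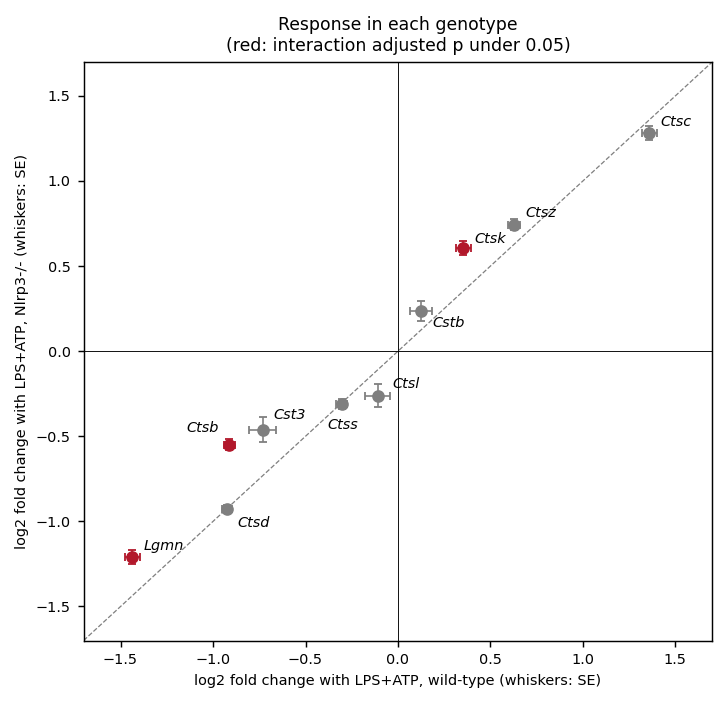
Log2 fold change with LPS and ATP in wild-type (x axis) against that in Nlrp3-/- (y axis) for the 10 genes, with whiskers for the SE and a dashed line where both are equal; red marks an adjusted p of the interaction under 0.05. Ctsb, Ctsk and Lgmn lie above the line, and Ctsd and Ctss lie on it.

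Nlrp3-/- BMDMs had less RNA of most of the 10 genes than wild-type BMDMs already in control. In control, 1 gene (Ctsc) was higher and 7 (Ctsb, Ctsd, Ctss, Ctsz, Lgmn, Cst3 and Cstb) lower in Nlrp3-/-, against 33.3% and 14.5% of tested genes, and 0 were DEGs, against 6.71%. The median log2 fold change of the 10 genes was -0.33, and that of all tested genes 0.09. With LPS and ATP, 2 genes (Ctsc and Ctsk) were higher and 5 (Ctsb, Ctsd, Ctss, Ctsz and Lgmn) lower, against 35.9% and 12.6% of tested genes, and 0 were DEGs, against 5.05%. The medians were -0.20 for the 10 genes and 0.11 for all tested genes. Median-ratio scaling moved the median of all genes by -0.12 and -0.15 in these comparisons and gave 20.5% of tested genes higher and 25.6% lower in control, and 22.7% and 27.2% with LPS and ATP. Of the 10 genes it left 1 higher and 8 lower in control, and 0 higher and 8 lower with LPS and ATP, with shifts of -0.15 and -0.19 in each log2 fold change. The genotypes did not overlap in 8 of 10 genes in each state, against 56.0% of tested genes in control and 57.9% with LPS and ATP, the exceptions being Ctsk and Ctsl in control and Cst3 and Cstb with LPS and ATP.

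The largest difference between genotypes was that of Ctsb in control, 1.66-fold lower in Nlrp3-/- (log2 fold change -0.73 ± 0.03, adjusted p = 7.1e-09). With LPS and ATP it was 1.29-fold lower (log2 fold change -0.37 ± 0.03, adjusted p = 2.2e-06). Lgmn followed at -0.53 ± 0.04 in control (adjusted p = 6.3e-07) and -0.30 ± 0.04 with LPS and ATP (adjusted p = 7.1e-05). The 2 states gave nearly the same value for Ctss (-0.39 and -0.39, adjusted p = 5.7e-07 and 6.3e-07) and for Ctsd (-0.33 and -0.33, adjusted p = 8.5e-07 and 9.4e-07). Ctsz was 1.26-fold lower in control on the FPKM scale (log2 fold change -0.34 ± 0.03, adjusted p = 4.2e-06) and differed by -0.22 ± 0.03 (log2) in the stimulated groups (adjusted p = 0.000137). These 5 proteases were lower in Nlrp3-/- in both states under each scaling.

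Ctsc was higher in Nlrp3-/- by 0.36 ± 0.04 on the log2 scale in control (adjusted p = 1.5e-05) and by 0.29 ± 0.04 with LPS and ATP (adjusted p = 0.000108), and with LPS and ATP it did not pass under median-ratio scaling (0.10, adjusted p = 0.0683). Ctsk had a log2 fold change of 0.01 ± 0.04 in control (adjusted p = 0.898) and 0.26 ± 0.04 with LPS and ATP (adjusted p = 0.000248). Under median-ratio scaling Ctsk passed as lower in control (-0.14, adjusted p = 0.0125) and did not pass with LPS and ATP (0.07, adjusted p = 0.159). For Ctsl the values were -0.02 ± 0.07 (adjusted p = 0.839) and -0.17 ± 0.07 (adjusted p = 0.0571). With LPS and ATP, Ctsl passed once wild-type control replicate 1 or 2 or Nlrp3-/- control replicate 1 was left out of the fit (adjusted p = 0.0426, 0.0291 and 0.0220), with the compared groups alone (adjusted p = 0.0024), and under median-ratio scaling (-0.36, adjusted p = 0.000864). Both cystatins were lower in Nlrp3-/- control, Cst3 by -0.38 ± 0.07 (adjusted p = 0.00118) and Cstb by -0.18 ± 0.06 (adjusted p = 0.0226). The Cstb value no longer passed without wild-type control replicate 3 (adjusted p = 0.0892) or Nlrp3-/- control replicate 2 (adjusted p = 0.0747). With LPS and ATP the cystatins had values of -0.11 ± 0.07 (adjusted p = 0.241) and -0.07 ± 0.06 (adjusted p = 0.340), and both passed under median-ratio scaling (Cst3 -0.30, adjusted p = 0.00596, and Cstb -0.26, adjusted p = 0.00264).

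Markers of other cells also moved with genotype. Of all tested genes, 33.3% were higher and 14.5% lower in Nlrp3-/- control, and 35.9% and 12.6% with LPS and ATP. All 7 macrophage markers were expressed, and 4 of 7 were lower and 0 higher in Nlrp3-/- in each state. Their summed FPKM was 19754 to 20993 in wild-type control and 11165 to 11255 in wild-type with LPS and ATP. It was 18871 to 19151 in Nlrp3-/- control and 10532 to 10757 in Nlrp3-/- with LPS and ATP. Most of this sum was Lyz2, with means of 18464, 9471, 17693 and 9309 FPKM in the same order of groups. Lyz2 did not pass between genotypes in control (log2 fold change -0.061, adjusted p = 0.0637), so the sum says little about the other markers. The 4 lower in Nlrp3-/- control were Cd68 (log2 fold change -0.726), Csf1r (-0.619), Fcgr1 (-0.403) and Adgre1 (-0.362). Mertk and Itgam did not pass there. All 6 fibroblast markers were higher in Nlrp3-/- in both states, with sums of 157 to 162, 181 to 183, 1165 to 1182 and 891 to 907 FPKM in the same order of groups. Of 11 markers of neutrophils and their precursors, 10 were tested, and 10 were higher in Nlrp3-/- control and 8 in Nlrp3-/- with LPS and ATP, with sums of 617 to 641, 411.5 to 429, 2220 to 2256 and 789.8 to 795 FPKM. No fibroblast or neutrophil marker was at 0 in a whole group. Of 6 osteoclast markers, 4 were tested, 3 of them higher in Nlrp3-/- control. With LPS and ATP, 2 were higher and 1 lower, and sums ran from 78.1 FPKM in wild-type with LPS and ATP to 157 FPKM in Nlrp3-/- control. Markers of dendritic, B, T and NK cells summed to at most 1.91 FPKM per list in any library. The part of these cells in the levels of the cathepsins was not tested.

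The promoters were searched for the letters bound by TFEB and its relatives, transcription factors of lysosomal genes. RefSeq start sites on GRCm38.p6 gave 9 windows of 250 bases before the start for 8 of the 10 genes (Ctsb and Cstb have none in the table). TCACGTGA was in the window of 1 of the 8 genes (Ctsd), and in those of 0.907% of the 27025 genes with a window. CACGTG, which lies within TCACGTGA, was in those of 3 of the 8 (Ctsd, Ctsl and Lgmn), and in those of 6.86% of all genes with a window. Each motif reads the same on both strands. The 4 places are all the matches in these windows, with positions given for CACGTG. They are shown on the gene's strand from 5′ to 3′, with the motif in capitals (the longer TCACGTGA where it matched). They lie at chr7:142387920-142387925 (minus strand, 98 bases before the Ctsd start, in an exon of a longer transcript), chr7:142388067-142388072 (245 bases before the Ctsd start, upstream of every annotated transcript), chr12:102439136-102439141 (minus strand, 49 bases before a Lgmn start, in an intron of a longer transcript) and chr13:64370751-64370756 (minus strand, 236 bases before the Ctsl start, in an exon of a longer transcript).
Ctsd, near: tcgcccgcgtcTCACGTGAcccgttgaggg
Ctsd, far: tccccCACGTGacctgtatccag
Lgmn: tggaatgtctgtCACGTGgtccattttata
Ctsl: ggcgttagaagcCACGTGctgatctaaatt
The windows of Ctsc, Ctsk, Ctss, Ctsz and Cst3 held neither motif. A match is a description of the letters in these windows, not of a bound site.

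Of the 4 genes for these factors, all were tested. Tfeb was a DEG, with 9.31 ± 0.864 FPKM in wild-type control, 1.97 ± 0.190 with LPS and ATP, and 6.90 ± 1.04 and 1.88 ± 0.469 FPKM in the same states of Nlrp3-/-. Its log2 fold change was -1.79 (adjusted p = 1.7e-07) in wild-type and -1.46 (adjusted p = 1.3e-06) in Nlrp3-/-. The other genes did not move that way. In wild-type, Mitf and Tfec were higher and Tfe3 did not pass (log2 fold change -0.06, adjusted p = 0.194). Under median-ratio scaling Tfe3 turned to 0.25 and passed as higher. In Nlrp3-/- all 3 were higher. The median of the 4 was 0.11 in wild-type and 0.14 in Nlrp3-/-. In Nlrp3-/- against wild-type, 3 of the 4 were lower in control and 2 with LPS and ATP, against 14.5% and 12.6% of tested genes. In both states 0 were higher, against 33.3% and 35.9%.

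Other cathepsins were mostly lower with LPS and ATP, whereas the abundant member Ctsz was higher. Of 16 listed, 6 were tested and 8 were listed at 0 in every library. All 6 tested (Ctsa, Ctse, Ctsf, Ctsg, Ctsh and Ctso) were lower with LPS and ATP in both genotypes, against 53.1% of tested genes in wild-type and 53.8% in Nlrp3-/-. Under median-ratio scaling 5 of 6 in wild-type and 4 of 6 in Nlrp3-/- were lower, against 35.7% and 33.0% of tested genes. Ctsh in Nlrp3-/- then turned to 0.05. The median log2 fold change was -0.87 in wild-type and -0.56 in Nlrp3-/-. Between genotypes, 2 were higher and 2 lower in Nlrp3-/- control, against 33.3% and 14.5% of tested genes. With LPS and ATP, 2 were higher and 1 lower in Nlrp3-/-, against 35.9% and 12.6%. Ctsg, a serine protease of neutrophil granules that shares only the name, was the only DEG among them on the log2(FPKM + 1) scale. Ctsg was at 37.9 ± 0.729 FPKM in Nlrp3-/- control and at 2.68 ± 0.405 FPKM or less in the mean of each other group. Under TPM, Ctse (-1.45, adjusted p = 3.1e-05) and Ctsf (-1.10, adjusted p = 1.3e-05) also reached the limit of a DEG with LPS and ATP in wild-type.

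Cathepsin C matures a set of granule serine proteases, and most of these went the other way from Ctsc on stimulation. Of 7 such genes, 5 were tested, and 4 were lower and 1 (Gzmb) higher with LPS and ATP in each genotype. Of all tested genes, 53.1% were lower and 23.3% higher in wild-type, and 53.8% and 20.6% in Nlrp3-/-, so that a fall was the common outcome. Elane, neutrophil elastase, was at 65.5 ± 1.19 FPKM in Nlrp3-/- control and 1.44 ± 0.345 FPKM with LPS and ATP (log2 fold change -4.78, adjusted p = 1.7e-11), and Prtn3, proteinase 3, at 32.7 ± 3.20 and 2.27 ± 0.367 FPKM (log2 fold change -3.36, adjusted p = 4.5e-11). All 5 were higher in Nlrp3-/- control than in wild-type control, and 4 were higher with LPS and ATP, against 33.3% and 35.9% of tested genes. Elane, Prtn3 and Ctsg are neutrophil genes, and Elane and Prtn3 are among the neutrophil markers above.

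Cathepsin S acts on the invariant chain, whose gene Cd74 was at 45.5 ± 1.42 FPKM in wild-type control, 31.5 ± 0.429 with LPS and ATP, and 61.8 ± 2.51 and 71.6 ± 3.02 FPKM in the same states of Nlrp3-/-. Of Cd74 and 5 MHC class II genes, 1 was higher and 5 lower with LPS and ATP in wild-type, against 23.3% and 53.1% of tested genes. In Nlrp3-/-, 2 were higher and 1 lower, against 20.6% and 53.8%. Under median-ratio scaling 1 was higher and 4 lower in wild-type, and 3 higher and 1 lower in Nlrp3-/-, where the median turned from -0.08 to 0.18. H2-Ab1, a class II chain, was higher in both genotypes (log2 fold change 1.41 in wild-type, adjusted p = 2.4e-07, and 1.14 in Nlrp3-/-, adjusted p = 1.9e-06). In Nlrp3-/- against wild-type, 4 were higher and 1 lower in control, against 33.3% and 14.5% of tested genes. With LPS and ATP 4 were higher and 0 lower, against 35.9% and 12.6%, and 3 were higher under median-ratio scaling. In that state Cd74 (1.16, adjusted p = 1.9e-09) and H2-Aa (1.25, adjusted p = 3.1e-09) were DEGs. Ctss was lower in Nlrp3-/- in both states.

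Other protease inhibitors differed in direction. Of 16 listed, 14 were in the table and 11 were tested. With LPS and ATP, 4 were higher and 3 lower in wild-type, against 23.3% and 53.1% of tested genes. In Nlrp3-/-, 4 were higher and 5 lower, against 20.6% and 53.8%. Of the same 11, 8 were higher and 2 lower in Nlrp3-/- control, against 33.3% and 14.5% of tested genes. With LPS and ATP, 7 were higher and 1 lower in Nlrp3-/-, against 35.9% and 12.6%. All 10 tested neutrophil markers were also higher in Nlrp3-/- control, and the part of such cells in the levels of these inhibitors was not tested. The stefin A genes Stfa1, BC100530 and Stfa2l1, whose reads may be divided uncertainly (the transcripts of Stfa1 and BC100530 are 96.9% identical, and those of Stfa2l1 and Stfa2 96.5%), were the DEGs with the largest changes. Their means were at most 0.452 FPKM in both wild-type groups, between 18.8 and 23.6 FPKM in Nlrp3-/- control and between 6.24 and 8.87 FPKM in Nlrp3-/- with LPS and ATP. Cst7, cystatin F, which is a lysosomal inhibitor of cathepsin C, rose in both genotypes, from 9.44 ± 0.15 to 77.6 ± 4.57 FPKM in wild-type and from 9.17 ± 0.118 to 78.8 ± 1.30 FPKM in Nlrp3-/- (it was singled out after its values were seen).

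The genes that carry lysosomal enzymes to their compartment changed in both directions. Of 10, all were tested, with 1 higher and 7 lower with LPS and ATP in wild-type and 2 higher and 7 lower in Nlrp3-/-, against 53.1% and 53.8% of tested genes lower, and with medians of -0.71 and -0.54. Under median-ratio scaling 2 were higher and 5 lower in each genotype. Ap1b1, a subunit of the AP-1 adaptor at the Golgi, had log2 fold changes of -1.96 (adjusted p = 4.5e-12) in wild-type and -1.46 (adjusted p = 7.3e-11) in Nlrp3-/-. Sort1, sortilin, had -1.66 (adjusted p = 3.0e-12) and -1.76 (adjusted p = 2.4e-12). Gga2, a Golgi adaptor for mannose 6-phosphate receptors, had -1.20 (adjusted p = 9.8e-09) and -0.67 (adjusted p = 2.2e-06). In Nlrp3-/- against wild-type, 1 was higher and 4 lower in control, against 33.3% and 14.5% of tested genes. With LPS and ATP, 2 were higher and 1 lower, against 35.9% and 12.6%.

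**Figure D5:**
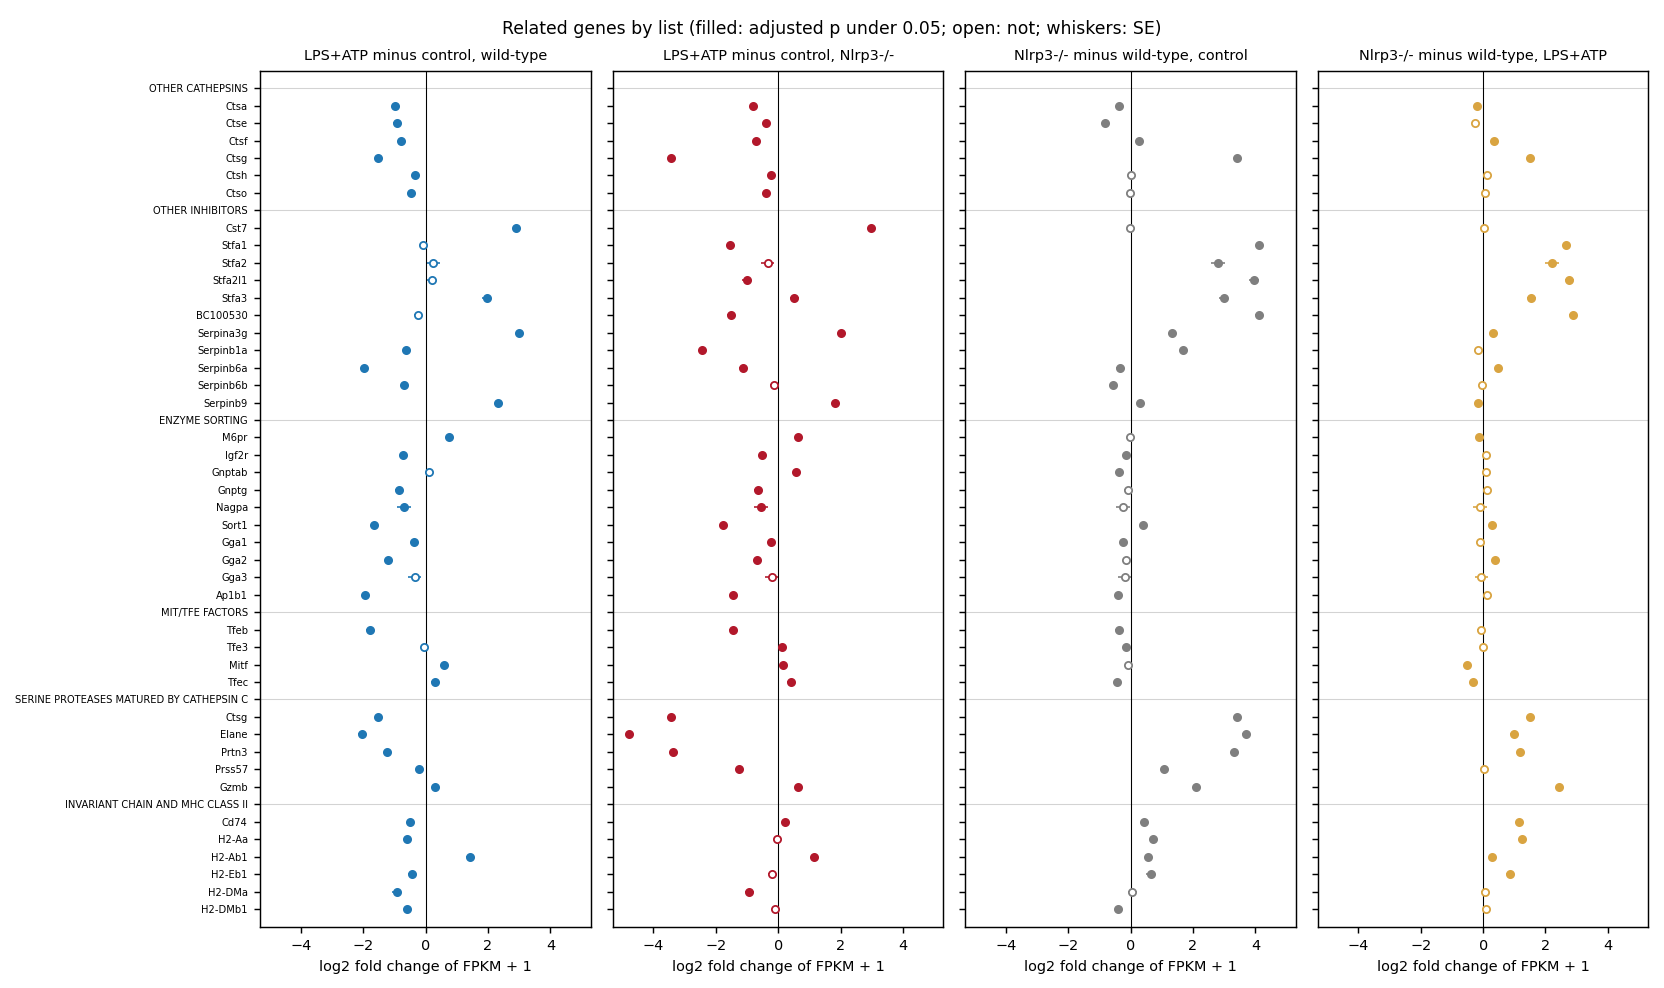
Log2 fold change of FPKM + 1 (x axis) of the tested genes of 6 lists (y axis; Ctsg is in 2 of them) in the 4 comparisons, with whiskers for the SE; filled points had an adjusted p under 0.05. All 6 other cathepsins lie below 0 with LPS and ATP in both genotypes, and all 5 serine proteases matured by cathepsin C lie above 0 in Nlrp3-/- control against wild-type control.

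Over the 12 libraries, the members formed patterns that ran together or opposite, given here as a description because the libraries share groups and FPKM is scaled within a library. Pearson's r of log2(FPKM + 1) was 0.994 for Ctsd and Lgmn, 0.942 for Ctsc and Ctsk, and -0.994 for Ctsc and Lgmn. Ctsb ran with Ctss at 0.936, and Cstb with Ctsz at 0.840. Ctss and Cstb had an r of -0.00 and were the pair nearest to 0. Of all other tested genes, the nearest was Rnh1 for Ctsd (r = 0.999, n = 12 libraries), Cerk for Lgmn (0.998), Ahnak2 for Ctsb (0.996), Mpp1 for Ctss (0.995), Rassf4 for Ctsz (0.997), Pde4b for Ctsc (0.997), Clec4a1 for Ctsk (0.992), Abcb8 for Cst3 (0.986), H2-D1 for Cstb (0.921) and Ndufaf8 for Ctsl (0.888).

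By GENCODE M21 on GRCm38, 4 of the genes share no base with another annotated gene (Ctsk, Lgmn, Cst3 and Cstb), and the library kit was not stated to keep strand. Within Ctss lies the pseudogene Hmgb1-ps5 on the same strand, at 1.33, 12.7, 0.816 and 9.0 FPKM in wild-type control, wild-type stimulated, Nlrp3-/- control and Nlrp3-/- stimulated. The pseudogene was far below Ctss and had a higher mean in each stimulated group than in its control. Fdft1 overlaps Ctsb on the opposite strand at 4.23 to 15.7 FPKM in the group means, and Nelfcd overlaps Ctsz at 3.79 to 7.62 FPKM. Gm49369, which shares 31.5% of the Ctsd transcript, was at most 0.364 FPKM in any library. The genes overlapping Ctsl were at most 0.0403 FPKM in a group mean.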

How the data were processed

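RNA sequencing of 12 BMDM libraries was deposited as 1 table of FPKM per gene and library, which the authors made from total RNA libraries (TruSeq). The aligner and counter are not given in the sources used here. The submitters' processing notes name GRCm39 and DESeq2 1.24.0 without a role, and positions here are from GENCODE M21 (GRCm38) and RefSeq (GRCm38.p6). Labels gave the group and replicate number of each library, and every column was used.

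Genes that reached 1 FPKM in 3 or more of the 12 libraries were tested as log2(FPKM + 1) by limma 3.58.1 (R 4.3.3) with a variance trend and 1 mean per group. No counts can be had from FPKM, so no count test was run and depth in reads is unknown. The comparisons were stimulation in each genotype, genotype in each state, and their interaction. P-values were Benjamini-Hochberg adjusted over all 12622 tested genes. The 10 genes, the gene lists and the markers were chosen with earlier results of these data known. All 10 genes were named, with up to 3 DEGs of largest change per list and the nearest gene by r. The fit was tested on simulated data. The same-numbered libraries' deviations from their group means correlated at -0.057 to 0.053. These values show no pairing by number but cannot exclude it, because the spread within a group may be technical. Alternatives were 0.1 as the pseudocount, the filter dropped or raised to 5 FPKM, TPM and median-ratio scaling, no trend, a replicate block, the compared groups alone, and leaving out each library. A near copy was a transcript that blastn 2.17.0+ aligned over 20% or more of its query with 95% identity. Further tools were pandas 2.3.3, numpy 2.4.6, matplotlib 3.10.9 and Python 3.11.15.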

Additional observations from a re-analysis of the deposited data

Results flagged for a closer look

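The change with LPS and ATP differed between genotypes, by the interaction term of the fit, for Ctsb (0.36 on the log2 scale, adjusted p = 0.000131), Ctsk (0.25, adjusted p = 0.00675) and Lgmn (0.23, adjusted p = 0.0113). In each case the value is the change in Nlrp3-/- minus that in wild-type. Groups of 3 libraries were not searched for outlying libraries.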

How the results depend on the processing

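Of 390 fold changes of the 10 genes recomputed under the alternatives other than leaving out a library, 370 kept their direction and their side of the threshold. With the same sign, 9 gained and 5 lost significance, and 6 changed sign. Under median-ratio scaling the sign changed for stimulation in wild-type for Ctsl (0.22) and Ctss (0.026), for stimulation in Nlrp3-/- for Ctsl (0.030), and for genotype in control for Ctsk (-0.14). Under TPM it changed for the interaction of Ctsd (0.012) and Ctss (0.011). Median-ratio scaling shifted all 10 log2 fold changes by nearly the same amount within a comparison, such as 0.324 to 0.330 for stimulation in wild-type. Why the scalings differ was not tested. Calls lost with the same sign were stimulation in Nlrp3-/- for Ctss and Cst3 and genotype with LPS and ATP for Ctsc and Ctsk, all under median-ratio scaling. Genotype in control for Cstb was lost with no filter (adjusted p = 0.0557). Of the sign changes under median-ratio scaling, Ctss in wild-type and Ctsl in Nlrp3-/- also lost the stimulation call (adjusted p = 0.463 and 0.713). Ctsl for stimulation in wild-type (adjusted p = 0.0119) and Ctsk for genotype in control (adjusted p = 0.0125) passed in the new direction. With libraries left out, 577 of 600 values kept both, and those that changed sign were near 0: genotype in control ranged from -0.035 to 0.040 for Ctsk and from -0.093 to 0.048 for Ctsl, and the interaction from -0.026 to 0.010 for Ctsd and from -0.030 to 0.021 for Ctss. The number of the 10 genes that passed stayed within 1.5 times in each comparison under every alternative run. With the replicate block, 9597 genes passed for stimulation in wild-type, against 9641, and among the 10 genes Cstb (0.13, adjusted p = 0.0489) in that comparison and the interaction of Cst3 (0.27, adjusted p = 0.0370) passed in addition, and no other call among the 10 changed. FPKM gives no read depth, so counting error could not be set beside the values.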
